A study of Homo sapiens with 4 samples.

Results

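The matrix metalloproteinases (MMPs) and their tissue inhibitors (TIMPs) were examined for binding of the zinc finger transcription factor MTF-1. The 10 genes MMP1, MMP2, MMP3, MMP9, MMP10, MMP13, MMP14, TIMP1, TIMP2 and TIMP3 were chosen by name, out of 20033 protein-coding genes in GENCODE 44 on hg38. For each gene, every peak that overlapped the gene or the 20 kb on either side of it was collected. MTF-1 CUT&RUN, in which an antibody tethers a nuclease to a DNA-bound protein and the released DNA is sequenced, was performed in MDA-MB-231, an established human breast cancer cell line. The 2 control libraries came from untreated cells and the 2 cadmium libraries from cells of the same line that had been exposed chronically to cadmium and held at 10 µM. All 4 libraries used an anti-MTF1 antibody. Replicates had been merged before peak calling, so each condition is 1 list of peak positions without heights or counts. Neither the sequencing depth of a library nor the spread between replicates can be had from these lists, no comparison carries a test, and every difference is between the 2 lists. Peak positions alone do not allow the labelled breast cell type to be checked against marker genes.

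MMPs are zinc-dependent endopeptidases that are made as inactive precursors and, once activated, cleave collagens, laminins and other proteins of the extracellular matrix. TIMPs bind the active site of MMPs and block it, so the balance of proteases and inhibitors sets how fast matrix is degraded. MTF-1 senses zinc and other metals and binds metal response elements (MREs) in metal-handling genes such as the metallothioneins. AP-1, the FOS/JUN dimer, is a well known regulator of several MMP genes.

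The sequences just upstream of the transcription start are shown for the members found in the RefSeq promoter table (GRCh38.p14). MMP7, another gene of the chromosome 11 cluster, is shown with them. Cluster genes other than the members were looked up only where a peak near a start was in the control list alone. MMP8, a cluster gene with such a peak in both lists, was therefore not examined. These starts fall into those that lost their peak and those that kept it. Those shown that lost it are all on chromosome 11 and those that kept it are all elsewhere, so the 2 groupings cannot be told apart. Of the 10 members, 4 matched by symbol: MMP10, MMP14, TIMP1 and TIMP3. MMP1, MMP2, MMP3, MMP9, MMP13 and TIMP2 had no entry. Each sequence is the 250 bases before the RefSeq start, read 5′ to 3′ along the gene. Capitals mark matches to motif strings on either strand. The AP-1 string was TGAGTCA or TGACTCA. The forkhead string was GTAAACA, or the same with A in place of the first G, T in place of the C, or both. The MRE core was TGCACNC or TGCGCNC, where N is any base. The JASPAR MTF-1 motif was TGCACACG. The MRE core and the JASPAR motif can overlap. The TATA string was TATAAA and the GC box was GGGCGG. The last 2 strings were added after the sequences were seen.
MMP10, chr11:102780629-102780878, minus strand: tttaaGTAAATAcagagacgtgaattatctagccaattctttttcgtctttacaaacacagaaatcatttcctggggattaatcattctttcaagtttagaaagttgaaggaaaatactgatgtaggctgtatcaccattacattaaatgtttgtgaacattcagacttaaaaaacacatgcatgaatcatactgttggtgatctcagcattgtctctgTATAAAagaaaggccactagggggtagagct
MMP7, chr11:102530748-102530997, minus strand: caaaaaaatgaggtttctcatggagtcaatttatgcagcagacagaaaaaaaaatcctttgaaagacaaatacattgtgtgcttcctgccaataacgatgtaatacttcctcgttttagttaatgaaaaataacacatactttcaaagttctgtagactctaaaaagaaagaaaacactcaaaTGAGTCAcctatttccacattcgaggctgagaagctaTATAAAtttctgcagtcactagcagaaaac
MMP14, chr14:22836335-22836584, plus strand: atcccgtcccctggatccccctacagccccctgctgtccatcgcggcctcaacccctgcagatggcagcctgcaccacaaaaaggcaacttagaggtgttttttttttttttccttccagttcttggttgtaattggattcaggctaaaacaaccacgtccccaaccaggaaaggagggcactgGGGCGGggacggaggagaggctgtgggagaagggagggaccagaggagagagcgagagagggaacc
TIMP1, chrX:47582186-47582435, plus strand: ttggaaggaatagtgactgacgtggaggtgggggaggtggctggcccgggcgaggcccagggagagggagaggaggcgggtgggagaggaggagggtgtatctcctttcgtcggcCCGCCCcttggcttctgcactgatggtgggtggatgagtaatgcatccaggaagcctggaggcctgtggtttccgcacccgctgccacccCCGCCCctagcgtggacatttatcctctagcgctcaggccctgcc
TIMP3, chr22:32801455-32801704, plus strand: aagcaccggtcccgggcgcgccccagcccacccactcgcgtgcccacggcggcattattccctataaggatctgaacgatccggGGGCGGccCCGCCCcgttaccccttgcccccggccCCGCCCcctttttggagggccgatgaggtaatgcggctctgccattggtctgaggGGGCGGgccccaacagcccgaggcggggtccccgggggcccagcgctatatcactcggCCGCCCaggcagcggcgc

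All 250 bases upstream of MMP10 and of MMP7 lay under a control peak and none under a cadmium peak, whereas all 250 bases upstream of MMP14, TIMP1 and TIMP3 lay under a peak in both lists. The MMP10 and MMP7 sequences were A/T-rich, with a GC content of 34.4% and 33.6%, against a median of 62.4% over the 15343 promoters in the table. Each held a TATA string, at -31 to -26 in MMP10 and at -30 to -25 in MMP7, counted from -1 at the last base before the start. The TATA string was present in 9.23% of all promoters. The MMP7 sequence also held 1 AP-1 match at -67 to -61, a string found in 3.17% of all promoters, and the MMP10 sequence held 1 forkhead match at -245 to -239, found in 9.49%. The sequences that kept their peak were richer in G and C, at 56.8% for MMP14, 64.8% for TIMP1 and 72.4% for TIMP3, and held 1, 2 and 5 GC boxes. A GC box was present in 56.7% of all promoters. None of the 5 sequences held an MRE core, which 29.5% of promoters held, or the JASPAR MTF-1 string, which 0.626% held. MMP20, a cluster gene with a control-only peak at an alternative start, also had an entry, which is not shown. No base of its 250 lay under a peak of either list. Its GC content was 41.6%, with a TATA string further upstream at -72 to -67 and a forkhead match at -215 to -209. A match describes the letters in these windows and is not a measured site.

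Peaks near these genes were common in both lists. All 10 members had a control peak in their window, beside 88.7% of all protein-coding genes, and 9 had a cadmium peak, beside 88.2%. MMP1 was the exception. A peak within 1 kb of a transcript start, called a start-site peak here, was present for 6 members in the control list (73.2% of all genes) and for 6 in the cadmium list (71.5%). These were not the same 6 genes. MMP14, TIMP1, TIMP2 and TIMP3 had one in both lists, as 70.0% of all genes did. MMP10 and MMP13 had one in the control list only, a pattern seen in 3.20% of all genes, and MMP2 and MMP9 in the cadmium list only, seen in 1.50%. The cadmium-only calls depend on the distance: within 3 kb of a start, MMP2 and MMP9 had a peak in both lists and 8 members had one in control, while MMP10 and MMP13 remained control only. MMP1 and MMP3 had none in either list. The shares over all genes are given for scale, and with 10 members no share of theirs was tested.

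**Figure D1:**
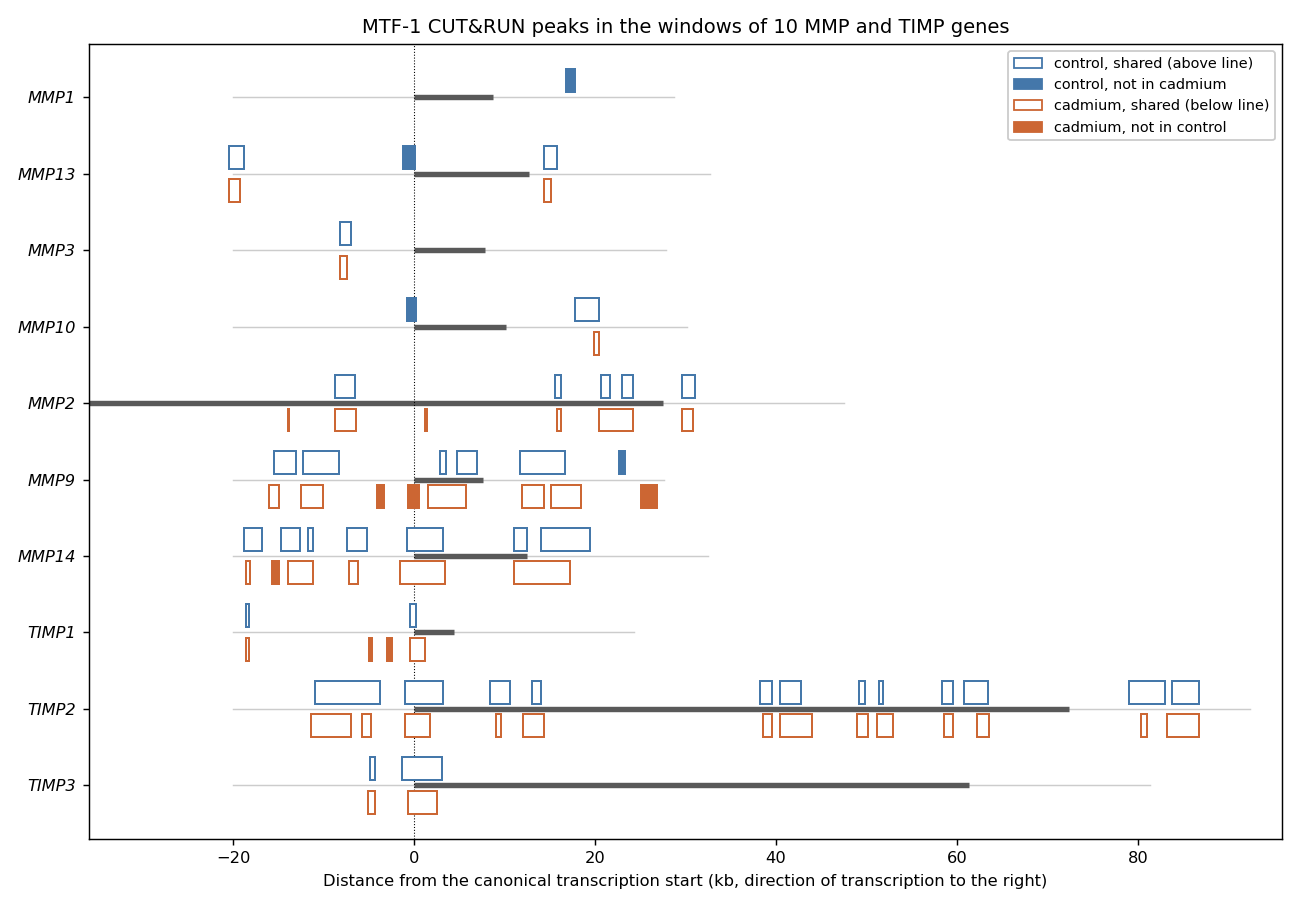
Peaks of the control list (blue, above each line) and of the cadmium list (orange, below) plotted by their distance in kb from the canonical start of each of the 10 genes, with transcription to the right, the gene as a dark bar and its window as a thin line. Filled boxes shared no base with the other list, open boxes did. The MMP2 gene and window extend further to the left, with no peak there. Filled blue boxes sit at the starts of MMP10 and MMP13, and a filled orange box at the start of MMP9.

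MMP1 and MMP13 encode interstitial collagenases, which cleave fibrillar collagen. MMP1 (ENSG00000196611.6, chr11:102789401-102798160, minus strand) had no peak within the gene or near any of its 4 annotated transcript starts. The only peak in its window was a control peak of 999 bp at chr11:102780401-102781399, which lies downstream of MMP1 with its center 17260 bp from the MMP1 canonical start and covers the start of MMP10. No cadmium peak was present in the MMP1 window, so coverage was 999 bases in control and 0 in cadmium, or 2.05% and 0% of the window.

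MMP13 (ENSG00000137745.13, chr11:102942995-102955732, minus strand) had 3 control peaks and 2 cadmium peaks. A control peak of 1399 bp at chr11:102955601-102956999 covered both annotated starts, the 5′ UTR and coding sequence, with its center 568 bp upstream of the start, and shared no base with any cadmium peak. The 2 flanking sites were present in both lists and narrower in cadmium. The downstream site measured 1399 bp in control (chr11:102940001-102941399) and 799 bp in cadmium (chr11:102940601-102941399), and the upstream site, 19668 bp from the start, measured 1599 bp (chr11:102974601-102976199) and 1199 bp (chr11:102975001-102976199). Window coverage was 3930 bases in control and 1531 in cadmium. MMP13 thus lost coverage both at its start and at the sites that flank it.

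MMP3 and MMP10 encode stromelysins, which cleave proteoglycans, laminin and fibronectin and can activate other pro-MMPs. MMP3 (ENSG00000149968.12, chr11:102835801-102843609, minus strand) had 1 site in its window, upstream of the gene and present in both lists. It measured 1199 bp in control (chr11:102850601-102851799), centered 7591 bp from the start, and 799 bp in cadmium (chr11:102851001-102851799). Neither list held a peak over the MMP3 gene or any of its 3 starts.

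MMP10 (ENSG00000166670.10, chr11:102770502-102780628, minus strand) was covered at its start in control cells only. The peak is the 999 bp control peak at chr11:102780401-102781399 that also falls in the MMP1 window, with its center 272 bp upstream of the MMP10 start. A second site, downstream of the gene, was 2599 bp wide in control (chr11:102760201-102762799) and 599 bp in cadmium (chr11:102760201-102760799). Coverage of the MMP10 window was 3598 bases in control and 599 in cadmium, or 7.18% and 1.19%, the widest difference in that direction among the members at -5.98 percentage points. The median difference over all protein-coding genes was -1.16.

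MMP2 and MMP9 encode the gelatinases, which degrade denatured collagen and the type IV collagen of basement membranes. MMP9 (ENSG00000100985.7, chr20:46008908-46016561, plus strand) was covered at its start in cadmium cells only. The peak at chr20:46008201-46009399 was 1199 bp wide, covered the upstream sequence, the 5′ UTR and the start of the coding sequence, and was centered 108 bp upstream of the single annotated start. It covered 59.9% of the bases within 1 kb of the start, against 0% in control. A second peak present in cadmium only lay upstream (chr20:46004801-46005599, 799 bp, centered 3708 bp from the start). Within the gene, 2 control peaks of 599 bp (chr20:46011801-46012399) and 2199 bp (chr20:46013601-46015799) corresponded to 1 cadmium peak of 4199 bp (chr20:46010401-46014599). Of the 3 MMP9 peaks present in cadmium only, these lay at the start and upstream of it, and the third lay downstream of the gene.

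The more distant MMP9 sites went in both directions. Upstream, the control peaks of 2399 bp (chr20:45993401-45995799) and 3999 bp (chr20:45996601-46000599) overlapped cadmium peaks of 1199 bp (chr20:45992801-45993999) and 2399 bp (chr20:45996401-45998799). Downstream, at the starts of SLC12A5 and its antisense gene SLC12A5-AS1, 1 control peak of 4999 bp (chr20:46020601-46025599) overlapped 2 cadmium peaks of 2399 bp (chr20:46020801-46023199) and 3399 bp (chr20:46024001-46027399). Further downstream, a control peak of 599 bp (chr20:46031601-46032199), centered 2568 bp from an SLC12A5 start, was absent from the cadmium list. A cadmium peak of 1799 bp (chr20:46034001-46035799), centered 1248 bp from an SLC12A5 start, was absent from the control list. In all, 14794 bases of the MMP9 window were covered in control and 17392 in cadmium, or 31.0% and 36.5%. With 50 kb on either side in place of 20 kb the direction turned, to 38588 bases in control and 27588 in cadmium.

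MMP2 (ENSG00000087245.13, chr16:55389700-55506691, plus strand) had 5 control and 6 cadmium peaks, and 2 of the cadmium peaks had no control counterpart. Both were 199 bp wide, the narrowest width in either list. One, at chr16:55480401-55480599, lay in an exon annotated as UTR with its center 33 bp from an alternative start and 1302 bp from the canonical start. It placed 3 of the 8 annotated MMP2 starts within 1 kb of a cadmium peak. With the canonical start alone, or with peaks of at least 400 bp only, MMP2 had no start-site peak in either list. The other, at chr16:55465201-55465399, lay in an intron, nearest to the start of the antisense gene MMP2-AS1.

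The other MMP2 sites were present in both lists. The widest control site was an intronic peak 7698 bp from the canonical start, at 2199 bp in control (chr16:55470401-55472599) and 2399 bp in cadmium (chr16:55470401-55472799). An intronic site was 599 bp (chr16:55494801-55495399) and 399 bp (chr16:55495001-55495399). Control peaks of 999 bp (chr16:55499801-55500799) and 1199 bp (chr16:55502201-55503399) over introns and a coding exon were joined in cadmium as 1 peak of 3799 bp (chr16:55499601-55503399). The site at the start of LPCAT2, downstream of MMP2, was 1399 bp (chr16:55508801-55510199) and 1199 bp (chr16:55508801-55509999). MMP2 window coverage was 6395 bases in control and 8194 in cadmium, or 4.07% and 5.22%. Most of the added cadmium bases thus came from the joined site in the gene body, not from the narrow peak at the alternative start.

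MMP14 (ENSG00000157227.14, chr14:22836560-22849041, plus strand) encodes MT1-MMP, a membrane-anchored collagenase that activates pro-MMP2 at the cell surface. Its start lay under a wide peak in both lists, of 3999 bp in control (chr14:22835801-22839799) and 4999 bp in cadmium (chr14:22835001-22839999). All the control bases of that site were also covered in cadmium. At the 3′ end of the gene, control peaks of 1399 bp (chr14:22847601-22848999) and 5399 bp (chr14:22850601-22855999) overlapped 1 cadmium peak of 6199 bp (chr14:22847601-22853799). MMP14 had 7 control and 6 cadmium peaks, with 17793 and 16194 bases covered, or 33.9% and 30.9% of the window, the highest control coverage of the 10 members.

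The remaining MMP14 window sites lay upstream, over the neighboring genes SLC7A7, an amino acid transporter, and MRPL52, a mitochondrial ribosomal protein. A peak of 799 bp at chr14:22820801-22821599, over an SLC7A7 start, was present in cadmium only. Control peaks of 2199 bp (chr14:22821801-22823999) and 599 bp (chr14:22824801-22825399) were joined in cadmium as a peak of 2799 bp (chr14:22822601-22825399). The site at MRPL52 was 2199 bp in control (chr14:22829201-22831399) and 999 bp in cadmium (chr14:22829401-22830399), and the farthest site was 1999 bp (chr14:22817801-22819799) and 399 bp (chr14:22818001-22818399).

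TIMP1, TIMP2 and TIMP3 encode secreted inhibitors, of which TIMP3 is held in the matrix and TIMP2 also takes part in MMP14-dependent activation of pro-MMP2. TIMP1 (ENSG00000102265.12, chrX:47582408-47586789, plus strand) was the member whose coverage was proportionally higher in cadmium than that of any other, 998 bases in control and 2996 in cadmium, a 3-fold difference. The start-site peak was 599 bp in control (chrX:47582001-47582599) and 1599 bp in cadmium (chrX:47582001-47583599), with the same left edge. It covered 29.9% of the bases within 1 kb of the canonical start in control and 71.8% in cadmium. Upstream of the start, peaks of 399 bp (chrX:47577401-47577799) and 599 bp (chrX:47579401-47579999), centered 4836 and 2736 bp from the canonical start, were present in cadmium only. Both lie within SYN1, the synapsin gene on the opposite strand in which TIMP1 is nested. The fourth cadmium site, 399 bp near ARAF (chrX:47563801-47564199), had the same edges in control. The TIMP1 peaks were narrow in both lists, and with peaks of at least 1000 bp only the TIMP1 window held 0 control bases and 1599 cadmium bases.

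TIMP2 (ENSG00000035862.13, chr17:78852977-78925387, minus strand) had the most peaks, 12 in control and 13 in cadmium, and each overlapped a peak of the other list. Its start was covered in full within 1 kb in both lists, by a control peak of 4199 bp (chr17:78922201-78926399) and a cadmium peak of 2799 bp (chr17:78923601-78926399) that lay entirely inside it. Upstream, a control peak of 7199 bp (chr17:78929201-78936399), the widest control peak in any member window, corresponded to cadmium peaks of 999 bp (chr17:78930201-78931199) and 4399 bp (chr17:78932401-78936799). Coverage of the window was 30188 bases in control and 25387 in cadmium, or 26.9% and 22.6%.

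Inside TIMP2, 8 intragenic sites other than the one at the canonical start were present in both lists, and their widths did not move in one direction. From the nearest to the farthest from the canonical start, the sites measured 2199 bp in control (chr17:78914801-78916999) and 599 bp in cadmium (chr17:78915801-78916399), 999 bp (chr17:78911401-78912399) and 2399 bp (chr17:78911001-78913399), and 1399 bp (chr17:78885801-78887199) and 999 bp (chr17:78885801-78886799). The next were 2399 bp (chr17:78882601-78884999) and 3599 bp (chr17:78881401-78884999), 599 bp (chr17:78875601-78876199) and 1199 bp (chr17:78875201-78876399), and 399 bp (chr17:78873601-78873999) and 1799 bp (chr17:78872401-78874199). The 2 farthest were 1199 bp (chr17:78865801-78866999) and 999 bp (chr17:78865801-78866799), and 2599 bp (chr17:78862001-78864599) and 1399 bp (chr17:78861801-78863199). Of these 8 sites, 4 were wider in cadmium and 4 in control. The site of 399 bp in control and 1799 bp in cadmium was also a start-site peak. Its centers lay 289 and 789 bp from an alternative TIMP2 start, which the cadmium peak covered. The 2 sites beyond the 3′ end were 2999 bp (chr17:78838601-78841599) and 3599 bp (chr17:78838601-78842199) at the start of USP36, and 3999 bp (chr17:78842401-78846399) and 599 bp (chr17:78844401-78844999) near the uncharacterized gene ENSG00000287539.

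TIMP3 (ENSG00000100234.12, chr22:32801705-32863041, plus strand) had 2 sites, both shared. The start-site peak was 4399 bp in control (chr22:32800401-32804799) and 3199 bp in cadmium (chr22:32801001-32804199), trimmed equally at both ends so that the center stayed 895 bp downstream of the start. The upstream site was 599 bp in control (chr22:32796801-32797399) and 799 bp in cadmium (chr22:32796601-32797399). No peak of either list fell in the rest of the gene, and coverage was 4998 and 3998 bases, or 4.93% and 3.95%.

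**Figure D2:**
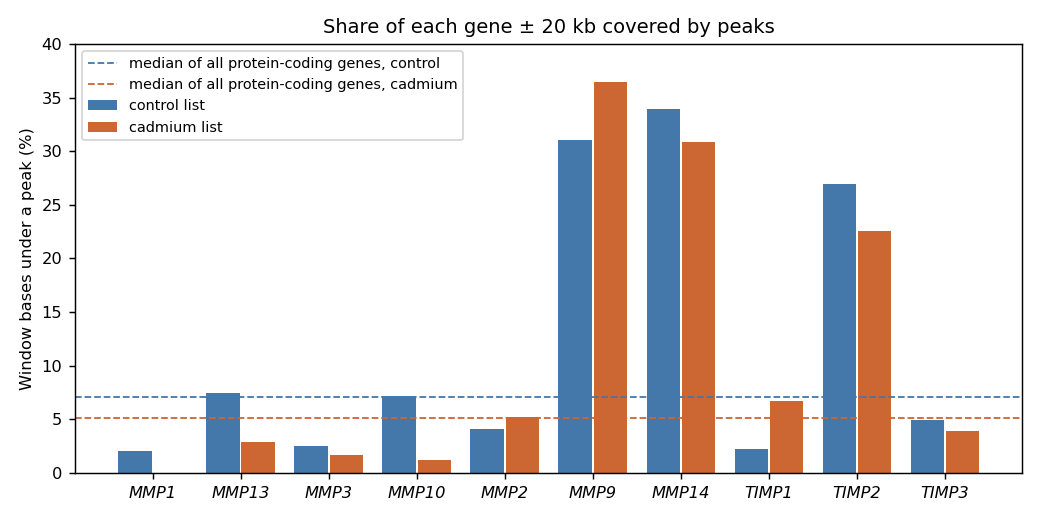
Percentage of the bases in each gene plus 20 kb on either side that lay under a peak, for the control list (blue) and the cadmium list (orange), 1 merged list per condition and so without error bars. Dashed lines are the medians over all protein-coding genes, 7.04% in control and 5.14% in cadmium. MMP9, MMP14 and TIMP2 stand at 22.6% or more in both lists.

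Counted once each, the 10 windows formed 8 separate regions of 681104 bases with 44 sites. Of these, 33 sites were shared, 8 were gained (a cadmium peak with no control peak on any of its bases) and 3 were lost (the reverse). At least 1 lost peak was present in 4 members' windows, MMP1, MMP9, MMP10 and MMP13, beside 46.0% of all protein-coding genes, and at least 1 gained peak in 4, MMP2, MMP9, MMP14 and TIMP1, beside 31.1%. Lost peaks made up 7.5% of the control peaks in the windows and 28.0% of the whole control list, and gained peaks made up 18.6% of the cadmium peaks in the windows and 15.1% of the whole cadmium list. The gained sites were 199 to 1799 bp wide, and the shared sites, counted over the bases of both lists, 399 to 8399 bp. Control covered more bases than cadmium in 7 members (66.3% of all genes), with MMP2, MMP9 and TIMP1 the exceptions. The median share of the window covered was 6.05% in control and 4.58% in cadmium, beside 7.04% and 5.14% over all genes.

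Lost and gained sites are given apart for the 4 members on chromosome 11 and the other 6. Over the whole lists, 28.0% of control peaks were lost and 15.1% of cadmium peaks were gained. The counts of both groups are small, and no difference from those shares was tested. MMP1, MMP3, MMP10 and MMP13 had 2 lost sites, 0 gained sites and 4 shared sites, all 4 of which covered more bases in control, and coverage went from 5.26% of their windows to 1.77%. The other 6 members had 1 lost and 8 gained sites, and of their 29 shared sites 15 covered more bases in control, 13 in cadmium and 1 the same number. Their coverage was 14.6% in control and 14.4% in cadmium, and MMP14, TIMP2 and TIMP3 among them also had fewer bases covered in cadmium. The chromosome 11 genes lie in 1 cluster, and the windows of MMP10, MMP1 and MMP3 overlap, so the 4 are not separate observations.

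The chromosome 11 cluster holds 9 MMP genes, all on the minus strand, in chr11:102500508-102975732 including 20 kb on either side. Besides the 4 members, these are MMP7 (matrilysin), MMP8 (neutrophil collagenase), MMP12 (macrophage elastase), MMP20 (enamelysin) and MMP27. The control list held 20 peaks in these 475225 bases and the cadmium list 10. Of the control peaks, 10 were lost, beside 28.0% of the whole control list. No cadmium peak was gained, beside 15.1% of the whole cadmium list. Each of the 10 cadmium peaks overlapped a control peak, and 9 of these 10 shared sites covered fewer bases in cadmium, with 1 equal. Coverage was 33113 bases in control and 7923 in cadmium, or 6.97% and 1.67%, a ratio of cadmium to control of 0.239.

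**Figure D3:**
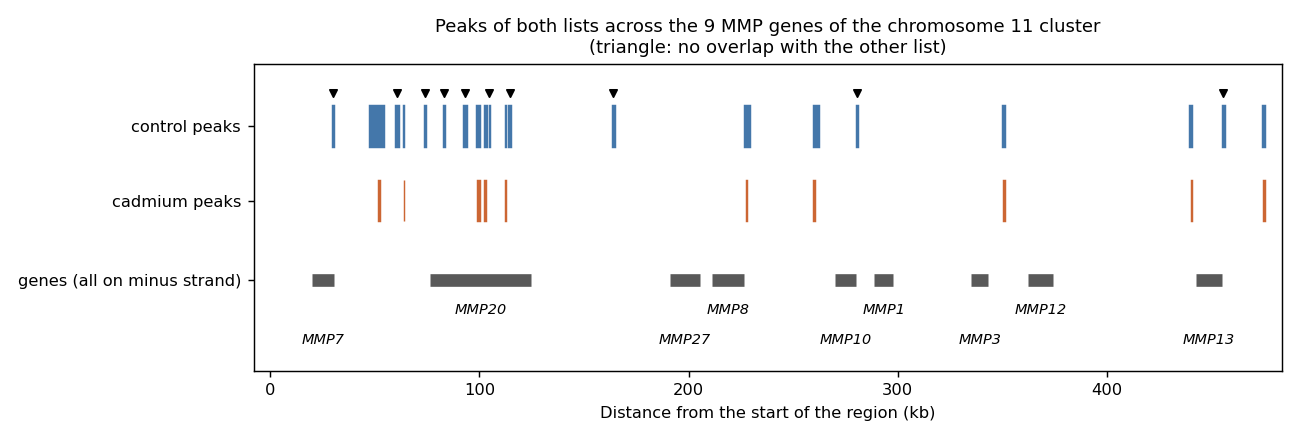
Control peaks (blue) and cadmium peaks (orange) across the chromosome 11 MMP cluster, plotted in kb from the start of the region, with the 9 genes as dark bars. Triangles mark the 10 control peaks with no cadmium counterpart, and no cadmium peak carries one.

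At the starts of the cluster genes, MMP7, MMP20, MMP10 and MMP13 had a start-site peak in the control list only. The MMP7 peak (chr11:102530201-102530999) and the MMP20 peak (chr11:102583001-102583799) were both 799 bp wide, the latter at an alternative start. MMP8 had one in both lists, in a site that measured 2599 bp in control (chr11:102727201-102729799) and 599 bases in cadmium. MMP27, MMP1, MMP3 and MMP12 had none in either. The MMP12 window held the same upstream MMP3 site, at 1199 and 799 bp.

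The lower cadmium coverage was not limited to the cluster. In the stretch of the same length before it, coverage was 20.7% in control and 5.72% in cadmium. There 16 of 34 control peaks were lost and 0 of 21 cadmium peaks gained. In the stretch after it coverage was 2.71% and 0.813%, with 2 of 7 control peaks lost and 0 of 5 cadmium peaks gained. Over the whole of chromosome 11 the ratio of cadmium to control bases was 0.480, the second lowest of 24 chromosomes, and over all 24 it was 0.697. Among 2755 tiles of 500 kb with at least 10 control peaks, 2.47% had a ratio at or under that of the MMP cluster and 26.2% held no gained peak, and the median ratio was 0.677. The part that this wider difference along chromosome 11 has in the values at the MMP genes was not tested.

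**Figure D4:**
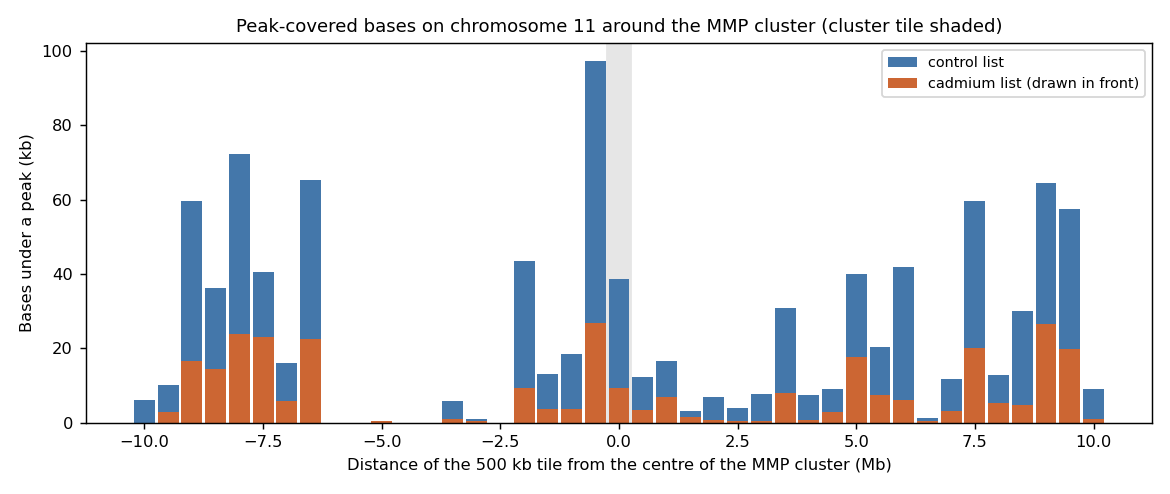
Bases under a peak in kb for tiles of 500 kb along chromosome 11, by distance in Mb from the center of the MMP cluster (shaded), with control bars in blue and cadmium bars drawn in front in orange. In the cluster tile 38579 bases were covered in control and 9389 in cadmium, and the tile before it held 97365 and 26778.

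Each member's window was set beside its surroundings, taken as the 250 kb on each side, since the ratio of cadmium to control bases differed widely between chromosomes. At TIMP1 the ratio was 3 in the window, 1.24 in the surroundings and 0.820 on chromosome X. At MMP9 it was 1.18, 0.614 and 0.607 for chromosome 20, and at MMP14 0.910, 0.623 and 0.523 for chromosome 14. In these 3 windows the ratio was thus higher than in their surroundings, though the MMP14 window had fewer bases covered in cadmium than in control. At MMP2 the order was the reverse, with 1.28 in the window and 8.01 in the surroundings, where coverage was only 599 bases in control and 4795 in cadmium, and 1.11 on chromosome 16. TIMP2 (0.841, 0.731 and 0.737 on chromosome 17) and TIMP3 (0.8, 0.836 and 0.993 on chromosome 22) lay close to their surroundings.

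On chromosome 11 the window of MMP13 had nearly the ratio of its surroundings, 0.390 and 0.389. MMP10 was lower in its window at 0.166 than around it at 0.270, MMP3 was higher at 0.666 than around it at 0.338, and MMP1 was at 0 and 0.267. These surroundings overlap each other. With 1 merged list per condition, none of these ratios has an error.

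**Figure D5:**
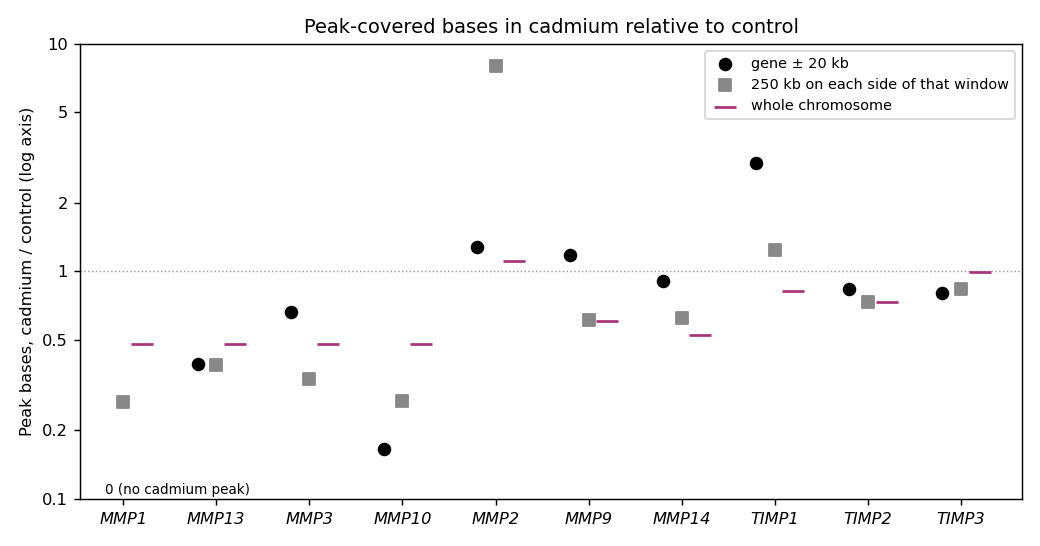
Ratio of peak-covered bases in cadmium to control on a log axis, for each gene's window (black circles), the 250 kb on each side of that window (grey squares) and its whole chromosome (purple dashes). The windows of TIMP1, MMP9, MMP14 and MMP3 sit above their surroundings and those of MMP2 and MMP10 below, and MMP1 has no cadmium peak.

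The members also differed in base composition at their starts. Within 1 kb of the start, GC content was 34.0% at MMP10, 38.1% at MMP13, 38.3% at MMP3 and 43.8% at MMP1, all among the 5043 protein-coding genes with the lowest GC content, when genes were ranked by it and split into 4 groups of about equal size. Of those genes, 41.0% had a start-site peak in both lists and 53.3% in neither, beside 84.3% and 11.4% of the 5008 genes with the highest GC content. The control-only pattern of MMP10 and MMP13 was infrequent in both groups, at 4.32% of the former and 2.50% of the latter. The other 6 members ranged from 54.5% at MMP9 to 68.7% at TIMP2, around the median of 56.0%. The 4 members with a start-site peak in both lists had a GC content of 55.8% (TIMP1) or more, but so did MMP2, at 57.9%.

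AP-1 strings were present in many of the members' peaks. The 2 peaks upstream of TIMP1 that were present in cadmium only held 1 each, as did the TIMP1 start-site peak, and the sites flanking MMP3 and MMP13 that both lists held contained them too. Examples are given from hg38, plus strand, with 11 bases on either side and the AP-1 match in capitals, to show the string at the TIMP1 peaks, gained and shared, and at the shared sites near MMP3 and MMP13. Of the 8 gained peaks in the member windows 3 held an AP-1 string, the 2 upstream of TIMP1 and the one at the MMP9 start. Of the 3 lost peaks 1 did, at the MMP13 start. Among all peaks of the same widths, 38.1% to 46.9% in the cadmium list and 45.2% to 47.9% in the control list held one.
TIMP1, gained, chrX:47577602-47577608, 4831 bp upstream of the start: gaactgcattaTGAGTCActtcccaggac
TIMP1, gained, chrX:47579657-47579663, 2776 bp upstream of the start: acactctgtgcTGACTCAggtttcaaaga
TIMP1, shared start-site peak, chrX:47582081-47582087, 352 bp upstream: taatttgggttTGAGTCAtagggagcttg
MMP3, shared, chr11:102851529-102851535, 7923 bp upstream: tcatcgtcttcTGAGTCAtgacttcatga
MMP13, shared, chr11:102940832-102940838, 14897 bp downstream of the start: ggggcctgagaTGACTCAcaagccctagc
MMP13, control only part of a shared site, chr11:102974798-102974804, 19069 bp upstream: tgttttttctgTGAGTCAcatattactta
MMP13, shared, chr11:102975063-102975069, 19334 bp upstream: actgaataatgTGAGTCAtgttctctggc

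At the starts that differed between the lists, the cadmium-only MMP9 peak held 2 AP-1 strings and no forkhead string, the control-only MMP13 peak held 1 AP-1 and 4 forkhead strings, and the control-only MMP10 peak held no AP-1 and 3 forkhead strings. None of these 3 peaks held an MRE core. The remaining such peak, the cadmium-only one at an alternative MMP2 start, held 2 MRE cores and no AP-1 or forkhead string. It was 199 bp wide, and 10.4% of cadmium peaks of that width held an MRE core. In wider peaks such strings are frequent. An AP-1 string was present in 43.8% of cadmium peaks of 399 bp, 46.6% of those of 599 bp and 45.2% of those of 1199 bp. A forkhead string was present in 55.0% of control peaks of 999 bp and 62.0% of those of 1399 bp. An MRE core was present in 63.9% of cadmium peaks of 1199 bp and in 66.7% of control peaks of 1399 bp. Over all peaks in the member windows, AP-1 strings numbered 0.403 per kb in control and 0.438 in cadmium, beside 0.374 and 0.446 over the whole lists. MRE cores numbered 1.22 and 1.02 per kb, beside 1.05 and 1.1. Forkhead strings numbered 0.723 and 0.567 per kb, somewhat below the 0.777 and 0.633 of the whole lists. The member peaks thus held these strings at densities close to those of the lists.

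Other genes of matrix turnover were counted from lists set by name. Over all genes, 70.0% had a start-site peak in both lists and 3.20% in control only. Of 16 further MMP genes, 9 had a start-site peak in both lists, 2 in control only (MMP7 and MMP20), 0 in cadmium only and 5 in neither. Of 3 further inhibitors (TIMP4, RECK and A2M), 2 had one in both lists and 1 in neither. Of 7 genes of the plasminogen system and other activators of MMPs, 6 had one in both and 1 in neither, and of 5 ADAM and ADAMTS proteases, 3 in both and 2 in neither. Of 7 matrix substrates, 5 had one in both, 1 in neither and 1 in control only: COL1A2, a chain of type I collagen, under a peak of 1199 bp at chr7:94394601-94395799. No gene of these 5 lists had a start-site peak in cadmium only, a pattern that only 1.50% of all genes showed. With so few genes listed, none of these counts was tested.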

How the data were processed

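Peak positions in hg38 were analysed as deposited. The authors trimmed adaptors, aligned reads with Bowtie2, pooled the 2 replicates per condition with SAMtools (1.8 per the submitters' processing notes) and called peaks with Epic2, an implementation of SICER (0.0.50 in those notes), with default parameters, which joins 200 bp bins into broad peaks. A control library for peak calling was not given in the sources used here. Each deposited list holds chromosome, start, end and a constant column that was not used, and starts were converted to 1-based positions. Narrow peaks close to the calling threshold may appear in 1 list only, and without reads this could not be weighed.

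Peaks were assigned with Python 3.11.15 to genes of GENCODE 44 plus 20 kb on either side. A peak was shared when at least 1 base lay under the other list. Start-site peaks lay within 1 kb of any transcript start of the gene. Distances run from the peak center. All 10 members are named with every peak, other listed genes when their start-site peak was in 1 list only, all MMP genes of the chromosome 11 cluster, and a neighbor with a peak at its start. The members and lists were chosen with earlier results of these data known. Motif strings were searched on both strands. Figures were drawn with matplotlib 3.10.9. The classification was checked on simulated peaks. No test was made.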

Additional observations from a re-analysis of the deposited data

How the results depend on the processing

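The counts of members and the covered bases were recomputed with windows of 10 or 50 kb, peaks of at least 400 or 1000 bp only, an overlap of at least 50%, a start distance of 3 kb, a peak over the start itself, the start of the gene model alone and, chosen after seeing the data, the canonical start alone. Of 51 values, 42 stayed within 1.5 times the reported value. With 50 kb on either side, lost peaks went from 3 to 7, shared sites from 33 to 53 and control bases from 83893 to 146577, by construction, since more sequence was counted. With peaks of at least 400 bp there were 5 lost peaks. With peaks of at least 1000 bp there were 10 lost peaks and 17 shared sites, since narrow partners were removed from both lists. The chromosome 11 cluster then held 2531 cadmium bases in place of 7923, since its narrow cadmium peaks were themselves removed. Its control bases went from 33113 to 28719. With at least 50% of a peak covered by the other list, 11 peaks were lost and 15 gained in place of 8. The MMP10 start-site peak, at 999 bp, drops out at the 1000 bp limit. So does the TIMP1 control start-site peak, at 599 bp, which leaves TIMP1 with one in cadmium only. At that limit 4 members had a control start-site peak in place of 6. Within 3 kb of a start, 8 members had a control peak in place of 6, and MMP2 and MMP9 were no longer cadmium only. No paired analysis was possible because the peak lists used here were called on merged replicates. Leaving out a replicate could not be run on them for the same reason. Signal tracks and reads were not used here, so depth and replicate spread limit every difference between the lists.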
